A study of Mus musculus with 12 samples.

Results

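The genes described here are those of the mouse proteasome and of the particles that cap it: every gene of the deposited table whose symbol begins with Psma, Psmb, Psmc, Psmd or Psme, without the interferon-inducible subunits Psmb8, Psmb9 and Psmb10. The rule found 40 of 14496 genes, and all 40 passed the filter on low values. Psma8, Psmb11 and 4 pseudogenes that fit the rule by name had no row and were not analysed here. The label "constitutive" holds by name for most of the 40. It does not hold for Psme1 and Psme2, the subunits of an activator that interferon gamma induces. Psmc3ip is a member by its symbol alone, since it encodes a protein of meiotic recombination.

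RNA was measured in 12 whole tumors harvested on day 14 from under the skin of BALB/C mice that had been injected with Renca, a renal carcinoma line of the mouse. In 6 tumors (the IK group) a further tumor grew in the kidney at the same time, and the other 6 (the SC group) grew with no kidney tumor. Each library mixes tumor cells with stroma, so fewer cells of a type and less RNA per cell cannot be told apart. Whether every tumor had a mouse of its own is not stated, so the p-values rest on the spread among the samples alone, which may be technical.

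The proteasome degrades proteins that carry ubiquitin chains. Its barrel, the 20S core particle, stacks rings of alpha subunits around rings of beta subunits, of which Psmb5, Psmb6 and Psmb7 cut peptide bonds. The 19S particle caps the barrel: its base unfolds substrates with a ring of ATPases, and its lid removes ubiquitin. In cells exposed to interferon gamma, Psmb8, Psmb9 and Psmb10 replace the 3 catalytic subunits in newly made particles, and the activator of Psme1 and Psme2 takes the place of some 19S caps, which alters the peptides offered on MHC class I.

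Each tumor gave 53312559 to 66142468 reads, and the members had 560 to 32817 reads per tumor, so counting error was small for most of them. The tumor cell keratins Krt8 and Krt18 were detected in every tumor, and the summed level of 8 epithelial markers was 2531 to 2658 CPM (reads scaled to a common library size) in the IK group and 2411 to 3004 in the SC group. The summed level of 8 T cell markers was 12.3 to 84.7 CPM in the IK group and 17.9 to 95.3 in the SC group. IK replicate 2, at 84.7, lay among the SC tumors, and SC replicate 6, at 17.9, among the other IK tumors. Skeletal muscle markers were at 42.9 to 215 CPM and 3.49 to 479 CPM, lowest in SC replicate 6.

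Whether a kidney tumor goes with another proteasome level in the distant tumor was asked by comparing IK with SC. The members had nearly the same level in both groups, apart from Psme1, Psme2 and Psme2b. The median difference, IK minus SC, was 0.02 log2 CPM over the 40 members and 0.01 over all 14008 genes tested. Of the members, 26 had a higher mean in the IK group and 14 a lower one, against 53.3% higher among all genes. With the median of every tumor set equal the split was 33 and 7 (58.5% higher among all genes), and with quantile normalization 24 and 16 (61.3%). In limma, 0 of 40 members had a Benjamini-Hochberg adjusted p under 0.05, and the background was 0% of all genes. At an unadjusted p under 0.05 it was 1 of 40 (2.5%, against 11.5% of all genes), with 1 higher (5.86% of all genes) and 0 lower (5.62%). In the same way limma voom on reads recovered from the table gave 0 and 1 (against 0% and 11.7%). Leaving out Psme1, Psme2 and Psme2b, the other 37 members had differences of -0.07 to 0.08, and their 95% intervals lay between -0.22 and 0.19. Each interval holds the differences that these tumors leave possible for its gene. That of Psmc1, 0.02 to 0.13 before any adjustment, did not include 0.

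**Figure D1:**
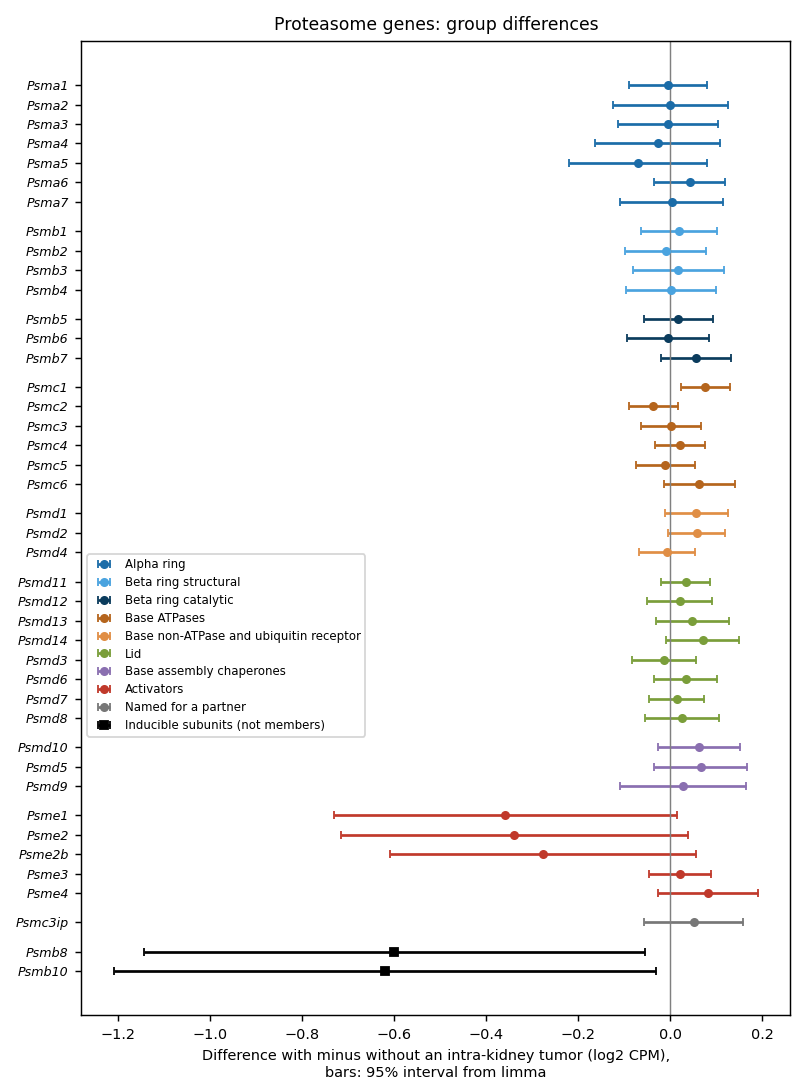
Difference in log2 CPM (IK group minus SC group) for each of the 40 members and for the inducible subunits Psmb8 and Psmb10, with 95% intervals from limma (n = 6 tumors per group), grouped by role. The points lie close to 0 except Psme1 at -0.36, Psme2 at -0.34 and Psme2b at -0.28, whose intervals reach past 0, and the inducible subunits at -0.60 and -0.62.

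Members also varied little between tumors of 1 group. The median residual SD was 0.062 log2 CPM over the members and 0.114 over all genes, and 34 of the 40 lay under that second value. Genes were not matched for level in this comparison. Low spread was not particular to the members: 31 other genes that serve the proteasome had a median of 0.069. The 20S members were at 0.075, and those of the 19S base and lid at 0.045. Psmc2, a base ATPase, had a residual SD of 0.0295, which placed it in the lowest 0.243% of all genes. The 3 most variable members were Psme1, Psme2 and Psme2b, with residual SDs of 0.334, 0.338 and 0.295.

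The alpha ring, which gates the barrel, had 7 measured genes, with 2 higher and 5 lower in the mean. Their differences ran from -0.07 to 0.04, with 0 passing the test (limma, smallest Benjamini-Hochberg adjusted p = 0.605). Psma5 had the lowest difference among the alpha and beta subunits. Its level was 6.67, 6.79 and 7.13 log2 CPM in the IK group (lowest, median, highest) and 6.76, 6.89 and 7.003 in the SC group. Replicate 2 of the IK group held the highest value of all 12 tumors, and the groups overlapped. The difference was -0.07 (95% interval -0.22 to 0.08, limma adjusted p = 0.664), or -0.13 without that tumor.

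The 4 structural beta subunits, Psmb1 to Psmb4, differed by -0.01 to 0.02 (limma, smallest adjusted p = 0.826). The catalytic subunit Psmb5, which carries the chymotrypsin-like activity, was at 6.87, 7.01 and 7.05 log2 CPM in the IK group and 6.92, 6.96 and 7.05 in the SC group. Its difference was 0.02 (95% interval -0.06 to 0.09). Psmb6, with the caspase-like activity, was at 6.67, 6.87 and 6.92 and at 6.80, 6.84 and 6.91. The lowest value belonged to replicate 3 of the IK group, and the difference of -0.01 (-0.09 to 0.08) was 0.03 without it. Psmb7, with the trypsin-like activity, was at 7.79, 7.92 and 7.96 and at 7.77, 7.84 and 7.92. All 3 genes overlapped between the groups, with limma adjusted p = 0.831, 0.963 and 0.505.

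The 19S base and lid had 17 genes, of which 13 had a higher and 4 a lower mean in the IK group, over a range of -0.04 to 0.08. Among them Psmc1, a base ATPase, came closest to the threshold. It was at 7.47, 7.49 and 7.55 log2 CPM in the IK group and 7.39, 7.44 and 7.46 in the SC group. Psmc1 was the only member whose groups did not overlap, 1 of 40 (2.5%, against 0.478% of all genes, 0.278% with IK higher and 0.2% with IK lower). The gap between the groups was 0.013, under the largest counting error of a single tumor, 0.015. Its difference was 0.08 ± 0.02 (SE), with an unadjusted p of 0.00876 and a Benjamini-Hochberg adjusted p of 0.432 in limma.

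Among the other ATPases, Psmc2 to Psmc6, differences ran from -0.04 for Psmc2 to 0.06 for Psmc6. Psmd2, the base scaffold and the member with the highest read count, was at 8.89, 8.93 and 8.97 log2 CPM in the IK group and 8.79, 8.88 and 8.91 in the SC group, a difference of 0.06 (limma adjusted p = 0.452). Psmd1, the other large base subunit, also differed by 0.06, and Psmd4, which binds ubiquitin, by -0.01. The 8 lid genes had 7 higher means. Psmd14, the enzyme of the lid that cleaves ubiquitin chains from substrates, was at 6.84, 6.89 and 6.98 and at 6.71, 6.84 and 6.89. The groups overlapped, and the difference was 0.07 (95% interval -0.01 to 0.15, limma adjusted p = 0.456).

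Chaperones that assemble the base had means higher in the IK group in 3 of 3 genes, again with 0 passing (limma, smallest adjusted p = 0.515). Psmd5 was at 6.65, 6.71 and 6.81 log2 CPM in the IK group and 6.47, 6.69 and 6.75 in the SC group, with replicate 5 of the SC group lowest. The difference was 0.07, or 0.03 without that tumor. Psmd10 (gankyrin) and Psmd9 differed by 0.06 and 0.03. Psmc3ip, the recombination gene, lay at 3.32 to 3.53 and at 3.29 to 3.43, with a difference of 0.05.

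Per kilobase of transcript (GENCODE M21 principal isoform), the 31 genes of the 20S and 19S particles lay between 39.3 CPM per kb for Psmd11 and 227 for Psma7 in their geometric mean over tumors, with a median of 110. Psme1 was at 98.1 and Psme2 at 124, within that range. Psme3 was at 44.1, and Psme4, which encodes the large activator PA200, at 18.1. These levels depend on which isoform is taken as the length.

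Of the activators, Psme1 and Psme2, which form the interferon-induced ring known as PA28 alpha-beta, had lower means in the IK group with wide overlap. Psme1 was at 6.30, 6.48 and 7.35 log2 CPM in the IK group and 6.52, 6.90 and 7.31 in the SC group. Of the IK tumors, 5 lay at 6.57 or below and replicate 2 at 7.35, above every SC tumor. Of the SC tumors, 5 lay at 6.88 or above and replicate 6 at 6.52. The difference was -0.36 (95% interval -0.73 to 0.02, 1.28-fold lower), with a Benjamini-Hochberg adjusted p of 0.443 in limma.

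Psme2 also had its highest value in IK replicate 2 and its lowest in IK replicate 3. It was at 6.33, 6.62 and 7.51 in the IK group and 6.69, 7.03 and 7.39 in the SC group. Its difference was -0.34 (95% interval -0.72 to 0.04, limma adjusted p = 0.456). Without replicate 2 of the IK group the differences of Psme1 and Psme2 were -0.51 and -0.50, still with 0 members passing over all genes (limma, Benjamini-Hochberg, against 0.983% of all genes). At an unadjusted p under 0.05 it was then 7 members, Psme1, Psme2 and Psme2b among them, against 24.2% of all genes. Without replicate 6 of the SC group it was 4 of 40 (against 20.8% of all genes). Sample weights, which lower the influence of tumors far from their group, made Psme1 the 1 member that passed (-0.45, limma adjusted p = 0.0441, against 3.89% of all genes), with 6 of 40 at an unadjusted p under 0.05 (against 26.9%).

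Like Psme1 and Psme2, markers of lymphocytes and of the interferon response had lower means in the IK group. This held for 8 of 8 T cell, 5 of 5 cytotoxic lymphocyte and 12 of 12 interferon response genes. Of these, Gzmb and Prf1 passed the filter on low values only through SC replicates 1 to 5 and IK replicate 2. Their lower IK means thus follow in part from the filter. The other 3 cytotoxic genes, Gzma, Nkg7 and Klrk1, differed by -2.03, -1.87 and -1.27. The median differences of the 3 lists, with Gzmb and Prf1 kept, were -1.34, -2.01 and -0.83, with 0 genes past the threshold. Without IK replicate 2 the medians were -1.80, -2.46 and -1.09. Then 1 of 8, 2 of the 3 still tested and 7 of 12 passed (limma, Benjamini-Hochberg), against 0.983% of all genes. Without SC replicate 6 the medians were -1.65, -2.30 and -0.95, and 0 genes of these 3 lists passed. The interferon response genes summed to 1738 to 5966 CPM in the IK group and 2625 to 5503 in the SC group, and none of the markers was at 0 reads in any tumor. Their part in the levels of Psme1 and Psme2 was not tested. Fibroblast and fat cell markers had lower means in 6 of 6 and 4 of 4 genes (medians -0.41 and -1.23), and epithelial markers a median of -0.04.

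Psme2b is listed as a separate gene, at 4.30, 4.44 and 5.26 log2 CPM in the IK group and 4.53, 4.82 and 5.16 in the SC group, a difference of -0.28 (limma adjusted p = 0.475), or -0.41 without IK replicate 2 (limma adjusted p = 0.0608). Its reads cannot be assigned with certainty. The GENCODE M21 principal transcript of Psme2b has 1 exon and that of Psme2 has 11, and their coding sequences differ at 5 of 717 bases (99.3% identical), with a shared run of 311 bases. How reads matching both were counted is not given in the sources used here. In every tumor the CPM of Psme2b was 20.3% to 24.5% of that of Psme2. The untranslated ends were not compared. The stretch from base 454 to base 543 of the coding sequence holds 3 of the 5 differences, in capitals, and is shown because it holds most of the bases by which the coding sequences differ:
Psme2: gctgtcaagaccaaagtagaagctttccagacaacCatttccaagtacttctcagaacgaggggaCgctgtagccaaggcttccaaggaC
Psme2b: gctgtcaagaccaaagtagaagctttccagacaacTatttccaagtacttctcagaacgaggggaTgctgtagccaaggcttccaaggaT

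Psme3, whose product forms the nuclear activator PA28 gamma, was at 6.83, 6.89 and 6.96 log2 CPM in the IK group and 6.79, 6.87 and 6.92 in the SC group. The groups overlapped and the difference was 0.02 (95% interval -0.05 to 0.09, limma adjusted p = 0.771). Psme4 was at 6.74, 6.95 and 7.01 and at 6.69, 6.86 and 6.93. Replicate 2 was the lowest IK tumor and replicate 5 the lowest SC tumor, each being the highest of its group in Psme1. The difference was 0.08 (-0.03 to 0.19, limma adjusted p = 0.492).

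**Figure D2:**
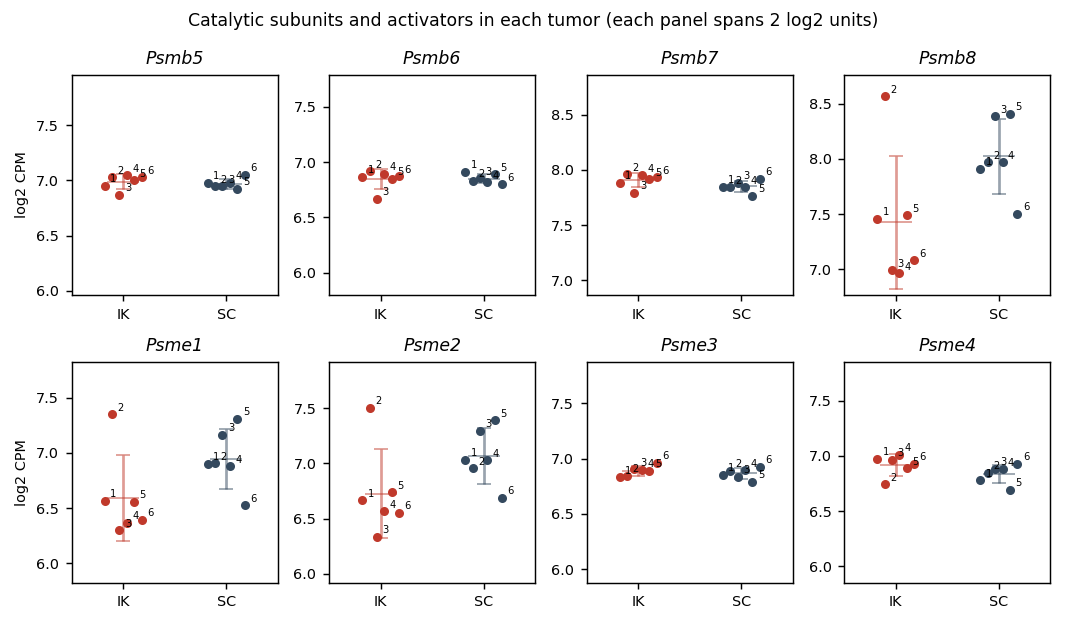
Level in each tumor (log2 CPM, points numbered by replicate, bars mean and SD, n = 6 per group) of the constitutive catalytic subunits Psmb5, Psmb6 and Psmb7, the inducible Psmb8, and the activators Psme1 to Psme4, each panel spanning 2 log2 units. Psmb5 to Psmb7, Psme3 and Psme4 stay within 0.31 log2 units over the 12 tumors, while Psmb8, Psme1 and Psme2 spread over 1.60, 1.05 and 1.17.

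The inducible catalytic subunits spread more widely than the constitutive ones. Psmb8 was at 6.96, 7.27 and 8.56 log2 CPM in the IK group and 7.50, 7.97 and 8.41 in the SC group, and Psmb10 at 5.07, 5.24 and 6.65 and at 5.42, 6.03 and 6.75. Their differences were -0.60 and -0.62 (limma adjusted p = 0.432 for both). Without IK replicate 2 they were -0.83 and -0.86 and both passed (limma adjusted p = 0.0404 and 0.048, against 0.983% of all genes). Both also passed with sample weights (-0.74 and -0.76, limma adjusted p = 0.0403 and 0.0384, against 3.89% of all genes). In the other 19 alternatives neither gene passed. Psmb9 was not analysed here.

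The log2 ratio of Psmb8 to Psmb5, the inducible over the constitutive form of the chymotrypsin-like subunit, was 0.44 ± 0.59 in the IK group and 1.05 ± 0.38 in the SC group (SD, n = 6 each). The difference of -0.62 (95% interval -1.25 to 0.02) had a two-sided exact permutation p of 0.0779, adjusted p = 0.0779 over the 2 ratios. That of Psmb10 to Psmb7 was -2.45 ± 0.58 and -1.78 ± 0.48, a difference of -0.68 (-1.36 to 0.01) with an exact permutation p of 0.0563 and the same adjusted p. Without replicate 2 of the IK group the differences were -0.84 and -0.91, with adjusted p = 0.00866 for both (exact permutation). Without replicate 6 of the SC group they were -0.74 and -0.82, with adjusted p = 0.0411 for both (exact permutation). With all 12 tumors neither ratio passed. Per kilobase of transcript, Psmb8 stood at 0.521 to 1.60 times the level of Psmb5 over the 12 tumors and Psmb10 at 0.120 to 0.438 times that of Psmb7.

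Whether the activators follow the inducible subunits from tumor to tumor was examined against the mean level of Psmb8 and Psmb10, in 7 relations. The same r was not computed over all genes. How many genes outside the proteasome follow or oppose this mean as closely is therefore not known. The 12 tumors ran from 6.02 to 7.61 on this mean, and the largest gap, 0.48 between 6.46 and 6.94, left 6 tumors on either side, so r is also given on each side of it. Psme1 followed it at r = 0.995 (rho = 0.937) and Psme2 at r = 0.985 (rho = 0.965), each with an adjusted p of 3.5e-05 for r (permutation over 100000 resamples, whose smallest unadjusted p is 1e-05). Within the IK group r was 0.996 and 0.980 (exact permutation, adjusted p = 0.0243 for both), and within the SC group 0.996 and 0.992 (exact permutation, adjusted p = 0.0194 for both). Without the 2 tumors farthest from the median, IK replicate 2 and SC replicate 5, they were 0.992 and 0.974 (permutation, adjusted p = 0.000105). In the 6 lowest tumors r was 0.9503 and 0.831 (exact permutation, adjusted p = 0.131 for both), and in the 6 highest 0.995 and 0.986 (exact permutation, adjusted p = 0.0389 and 0.0194).

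Psme4 went the opposite way, at r = -0.875 (rho = -0.902, permutation, adjusted p = 0.0007), or -0.757 without the 2 farthest tumors (permutation, adjusted p = 0.0245). Within groups r was -0.938 in IK (exact permutation, adjusted p = 0.0486) and -0.703 in SC (exact permutation, adjusted p = 0.128). In the 6 lowest and the 6 highest tumors it was -0.619 and -0.630 (exact permutation, adjusted p = 0.34 and 0.299), so the relation of Psme4 did not pass on either side of the gap. Psme3 had r = -0.701 (rho = -0.559, permutation, adjusted p = 0.02 for r and 0.111 for rho). Without the 2 farthest tumors it kept its sign at -0.531 but missed the threshold (permutation, adjusted p = 0.202). It also missed the threshold without IK replicate 6 alone (-0.656, permutation, adjusted p = 0.0529) and passed without IK replicate 2 alone (-0.693, permutation, adjusted p = 0.0301). On the lower and upper sides of the gap it was -0.328 and -0.807 (exact permutation, adjusted p = 0.883 and 0.136). Within the SC group it was -0.938 (exact permutation, adjusted p = 0.0194), and within the IK group -0.583 (exact permutation, adjusted p = 0.369). For Psmb5, Psmb6 and Psmb7 r was -0.137, 0.433 and -0.238 (rho = -0.175, 0.28 and -0.168; permutation, adjusted p = 0.674, 0.223 and 0.531). Within the SC group Psmb5 had r = -0.919 (exact permutation, adjusted p = 0.0219), against 0.308 in the IK group (exact permutation, adjusted p = 0.521); the difference between the groups was not tested. Without the 2 farthest tumors these 3 genes were at -0.191, 0.248 and -0.318, and none passed on either side of the gap. All values are shares of the reads of a tumor, and a gene whose own RNA does not change falls in share where others take more. The part of this in the relations of Psme4 and Psme3 was not tested. With quantile normalization Psme4 was at r = -0.884 (permutation, adjusted p = 0.0004) and Psme3 at -0.591 (permutation, adjusted p = 0.0798).

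**Figure D3:**
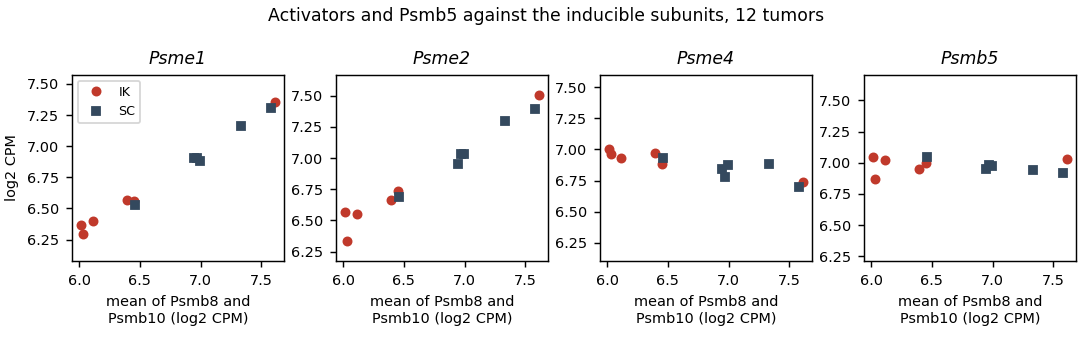
Level of Psme1, Psme2, Psme4 and Psmb5 (log2 CPM, each panel spanning 1.5 log2 units) against the mean log2 CPM of Psmb8 and Psmb10 in the 12 tumors, circles IK and squares SC. Psme1 and Psme2 rise along a line (r = 0.995 and 0.985), Psme4 slopes down (r = -0.875) and Psmb5 shows little slope (r = -0.137).

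With the group means removed, the 14 genes of the 20S particle varied together from tumor to tumor. Their 91 pairs had a median r of 0.65, and 91 of 91 were above 0. With single tumors left out the median ran from 0.52, without IK replicate 2, to 0.70, and at least 74 pairs stayed above 0, the fewest without IK replicate 3. The 17 genes of the 19S particle had a median pair r of 0.18 (range -0.68 to 0.92), pairs of a 20S with a 19S gene 0.09, and all pairs of tested genes 0.01. Genes were not matched for level in these figures, which are descriptions over the same 12 libraries. Shared variation was not particular to the 20S genes: genes outside the proteasome followed the mean profile of the 20S and 19S genes at r up to 0.944. The mean of the 20S genes ran from 7.07 log2 CPM in replicate 3 to 7.34 in replicate 2 of the IK group, while SC tumors lay at 7.16 to 7.23. The mean of the 19S genes moved by 0.107 over all tumors, or 0.0648 without SC replicate 5. That of the 20S genes moved by 0.273, or 0.169 without IK replicate 2.

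Each of the 31 genes was also set against the mean of the other 30. In the 20S particle r was 0.59 to 0.90, highest for the structural subunit Psmb1. In the 19S particle it was -0.42 to 0.67, with Psmd7, a lid scaffold, and Psmc2 highest and Psmd11 and Psmd3, both lid subunits, lowest. Transcript length went along with this order in the 19S genes (Spearman rho = -0.61 over 17 genes) and in the opposite direction in the 20S genes (0.45 over 14 genes). The median transcript length was 1162 bases in the 20S and 1636 bases in the 19S particle. The part of length or RNA quality in this pattern was not tested.

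**Figure D4:**
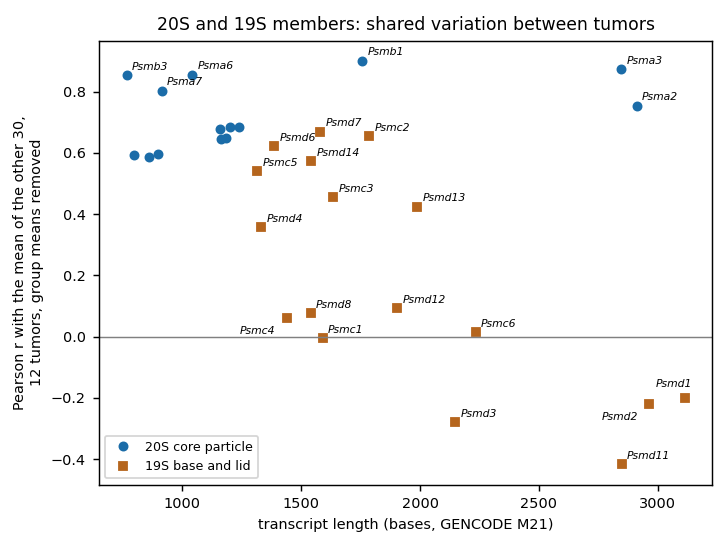
Pearson r of each 20S gene (circles) and 19S gene (squares) with the mean of the other 30 over 12 tumors, group means removed, against transcript length in bases; labels are left out where points crowd. The 20S genes sit between 0.59 and 0.90, while 5 of the 17 19S genes lie below 0.

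Among the 13968 tested genes that are not members, those most like the mean profile of these 31 were Ndufv2 (a subunit of respiratory complex I, r = 0.944), Atp5l2-ps (0.942), Bud31 (0.930), Usmg5 (0.925), Hsbp1 (0.922), Rps27l (0.920), the translation initiation subunit Eif3i (0.920) and the spliceosomal Snrpd1 (0.917). Of the listed partners of the proteasome, Sem1, a small lid subunit not named by the rule, came at rank 57 (r = 0.838), the core particle chaperone Psmg4 at rank 72 (0.828) and the maturation protein Pomp at rank 270 (0.747). Psmb8 was at rank 1169 (0.523). The ubiquitin receptor Adrm1 was at rank 12305 (-0.466).

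The genes that serve the proteasome had differences of -0.15 for Psmg4, a chaperone of the core particle, to 0.17 for Uchl5. Over 31 tested genes of 4 lists the median was 0.01, with 17 higher and 14 lower, 0 past the threshold in limma and 3 at an unadjusted p under 0.05 (Uchl5, Psmg1 and Nfe2l2), where the background was 11.5% of all genes. Assembly factors and the inhibitor Psmf1 had 3 higher and 4 lower means, and proteasome-bound receptors and enzymes 8 and 4. Uchl5, a deubiquitinase of the 19S base, was at 5.24, 5.32 and 5.45 log2 CPM in the IK group and 5.003, 5.16 and 5.26 in the SC group, a difference of 0.17 (limma adjusted p = 0.432).

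Psmg1, a chaperone of the alpha ring, differed by 0.12 (limma adjusted p = 0.432). In the list of transcriptional control and protein import 4 of 5 means were higher. Nfe2l1, the factor that raises proteasome genes when the proteasome is blocked, was at 8.29, 8.44 and 8.50 log2 CPM and at 8.25, 8.38 and 8.44, a difference of 0.06 (limma adjusted p = 0.563). Nfe2l2, the factor of the oxidative stress response, differed by 0.12 (limma adjusted p = 0.432). In the ubiquitin and p97 list 2 means were higher and 5 lower, between -0.03 and 0.04. Proliferation markers had higher means in 8 of 8 genes (median 0.11), and their part in the small differences of the 19S genes was not tested.

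The starts of the genes were searched for the letters of elements known to act on interferon and proteasome genes. RefSeq windows (GRCm38.p6) from 250 bases before to 50 bases after the start were found by symbol for 34 of the 40 members. GAAA repeated after any 2 bases, a core of the interferon-stimulated response element, was searched on both strands, as were the other motifs. It occurred for 4 of 34 members (11.8%) and for 3.99% of 27025 genes. Psme1 was 1 of the 4, and neither Psme2 nor the inducible subunits held these letters. The sites follow in 30 bases on the strand of the gene, with the match in capitals:
Psme1: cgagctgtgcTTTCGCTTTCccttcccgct
Psmb3: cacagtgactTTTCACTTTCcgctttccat
Psmd4: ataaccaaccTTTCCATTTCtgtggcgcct
Psmd9: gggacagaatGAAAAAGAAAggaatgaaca
They lie on GRCm38.p6 at chr14:55578493-55578522 (plus strand, 9 bases after the start) for Psme1, chr11:97703261-97703290 (plus) for Psmb3, chr3:95042675-95042704 (minus) for Psmd4 and chr5:123228021-123228050 (plus) for Psmd9. Psmb3, Psmd4 and Psmd9 differed by 0.02, -0.01 and 0.03 between the groups, against -0.36 for Psme1.

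The letters TGACNNNGC, a core of the antioxidant response element that Nfe2l1 and Nfe2l2 bind, occurred for 6 of 34 members (17.6%) and for 14% of all genes. None of these matches overlapped another motif searched. The 3 nearest to a start belong to Psme4, Psmb6 and Psmd9, and that of the catalytic subunit Psmb5 is added:
Psme4: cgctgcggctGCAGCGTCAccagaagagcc
Psmb6: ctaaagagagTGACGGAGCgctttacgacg
Psmd9: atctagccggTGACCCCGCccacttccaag
Psmb5: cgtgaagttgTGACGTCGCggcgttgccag
Their positions are chr11:30771758-30771787 (plus strand, 7 bases before the start), chr11:70525338-70525367 (plus, 9 bases before), chr5:123228149-123228178 (plus, 31 bases before) and chr14:54618023-54618052 (minus, 47 bases before) on GRCm38.p6. For Psmb6 the bases after the RefSeq start were not found in the GENCODE M21 principal transcript. Its distance and its place among the 3 nearest therefore rest on the RefSeq start alone. CCAAT occurred for 13 of 34 (38.2%) and 41.1%. A match describes letters only and says nothing of binding in these tumors.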

How the data were processed

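The values used, log2 CPM of 14496 Ensembl genes in 12 tumors, stand in 1 table that the authors deposited. Build mm9 and the tools TopHat 1.4.1, CASAVA 1.8.2, limma and HTSeq come from the submitters' processing notes, and settings are not given in the sources used here. They fit a log2 of reads plus 0.5: within 0.001 of a read, 100% were whole reads times 1 step per tumor, and the reads were recovered from these steps. The implied library size was 0.985 to 1.01 times the sum of reads. Symbols came from GENCODE M21 by identifier (14004 genes).

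The 14008 genes that reached a log2 CPM of 0 in 6 or more tumors entered limma 3.58.1 (R 4.3.3, variance trend), two-sided, Benjamini-Hochberg over all genes, threshold 0.05. Ratios were tested by exact permutation over 924 assignments (smallest p 0.00216), and correlations by permutation. Members, lists and the rule for named genes (catalytic subunits, activators, and the 4 highest and 4 lowest differences) were chosen with earlier results of these data known. Members named beyond that rule serve as examples. The planned ratio of Psmb9 to Psmb6 was not made, and the inducible mean uses Psmb8 and Psmb10. Alternatives were filters, scaling, variance models, sample weights, a replicate block, voom on recovered reads and leaving out each tumor. Leaving out tumors for marker lists and for the covariation of subunits was added after seeing the data. Results for 1 gene and 1 motif are not reported here. The scripts were tested on simulated data. Tumors of 1 group differed by more than sampling noise (chi-square over degrees of freedom 13.5 to 169), and all were kept as separate samples.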

Additional observations from a re-analysis of the deposited data

Results flagged for a closer look

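In 88 sets of 6 tumors (each member, both inducible subunits and both ratios, in each group), 10 held a tumor far from the others by Dixon's criterion at the 95% level. Chance alone gives about 1 in 20. Replicate 2 of the IK group made up 7 of the 10, in genes that vary together and are not separate results. It was highest for Psme1 (7.35 log2 CPM, the others 6.30 to 6.57), Psme2 (7.51, others 6.33 to 6.74), Psme2b (5.26, others 4.30 to 4.64), Psmb8 (8.565, others 6.96 to 7.49) and Psmb10 (6.655, others 5.07 to 5.42). It was also highest in the log2 ratios of Psmb8 to Psmb5 (1.54, others -0.08 to 0.50) and of Psmb10 to Psmb7 (-1.30, others -2.88 to -2.50).

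Psmb6 was low in replicate 3 of the IK group (6.67, others 6.85 to 6.92). Psma7 was high in replicate 3 of the SC group (7.79, others 7.63 to 7.69), and Psmd2 was low in replicate 5 of that group (8.79, others 8.87 to 8.91).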

How the results depend on the processing

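The count of members past the threshold was 0 in every setting except sample weights, where it was 1 (Psme1), and 0 to 0 with single tumors left out. The count over all genes was 0, but 545 with sample weights (134 higher, 411 lower), 1 with no variance trend, and 0 to 137 with single tumors left out, the 137 without IK replicate 2. The median difference of the members stayed within the spread between tumors in all 21 alternatives and ran from 0.00759 to 0.0317 with single tumors left out. Psmb6 turned to 0.00813 with median scaling and 0.00206 with sample weights, and ran from -0.0195 to 0.0302 with single tumors left out. The ratio of Psmb8 to Psmb5 ran from -0.84 to -0.51 and that of Psmb10 to Psmb7 from -0.91 to -0.52, both called without IK replicate 2 or SC replicate 6. The correlation of Psme3 lost its call with quantile normalization (-0.591, permutation, adjusted p = 0.0798) and without IK replicate 6 or SC replicate 5, in a range of -0.816 to -0.602. That of Psmb7 turned to 0.0288 with group means removed (range -0.543 to 0.0266), and that of Psmb5 to 0.0749 with quantile normalization (range -0.535 to 0.0192). The cause of these changes was not tested. With replicate number as a block, 0 members passed and 2 of 40 did at an unadjusted p under 0.05, against 11.1% of all genes. Numbers share no stated origin, same-numbered tumors correlated at -0.305 to 0.447, and 1 of 12 tumors matched its own number best. For Psmc1 the counting error of a single tumor reached 0.015, above the gap of 0.013 between its groups but under its difference of 0.08. The planned ratio of Psmb9 to Psmb6 was not run.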
